A study of Mus musculus with 6 samples.

Results

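The genes described here encode the enzymes and chaperones that turn new procollagen chains into crosslinked fibrils. The set was a written list of 34 genes for collagen hydroxylation, folding, secretion, propeptide cleavage and crosslinking, and each was looked up by symbol among the 18099 genes of the deposited table. All 34 were present, and all 34 passed the filter on low counts. RNA from injured Achilles tendon tissue was sequenced for 3 LysM-Cre; Ampkα1 fl/fl mice beside 3 littermate control mice, which were Ampkα1 fl/fl without Cre. All 6 mice were neonatal, had the Achilles tendon of each leg transected and were sampled a week later, so both groups carried the floxed allele and the injury. The Cre recombinase is made from the lysozyme M locus and removes Ampkα1, the catalytic α1 subunit of AMP-activated protein kinase, in myeloid cells such as macrophages, whereas the libraries hold RNA from every cell of the repair tissue. Insertion of Cre and loss of Ampkα1 came together in these mice and cannot be told apart. Summed reads were between 18076805 and 19479887 per library.

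Fibrillar collagen, the load-bearing protein of tendon, is modified while it is being made. In the endoplasmic reticulum, prolines and lysines of the chains are hydroxylated and some hydroxylysines are glycosylated, chaperones hold the chains as they wind into a triple helix, and large coated vesicles carry the rigid molecule out. Outside the cell the end propeptides are cut off, the molecules assemble into fibrils, and lysyl oxidases turn lysine and hydroxylysine side chains into aldehydes that form the covalent crosslinks behind tensile strength. Most of these steps are carried out by small gene families whose members differ in the site or collagen type they act on.

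Collagen processing genes were abundant in this tissue in both groups. Levels are given as TPM, a unit that is scaled to transcript length and library total and so can be compared between genes. Over the 6 libraries the median level of the 34 genes was 180.0 TPM, compared to 17.4 TPM for all 14261 genes tested, and 24 of the 34 were over 100 TPM. Sparc, a secreted protein that binds collagen and acts as its extracellular chaperone, was the third most abundant gene of the whole table at 13700 TPM. Serpinh1, the collagen-specific chaperone HSP47, ranked 54th at 2259 TPM. Loxl4 at 3.05 TPM, Colgalt2 at 7.20 TPM, Tll1 at 10.1 TPM and P3h2 at 11.9 TPM were the 4 genes under 20 TPM, and each belongs to a family with a far more abundant member in the same libraries.

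**Figure D1:**
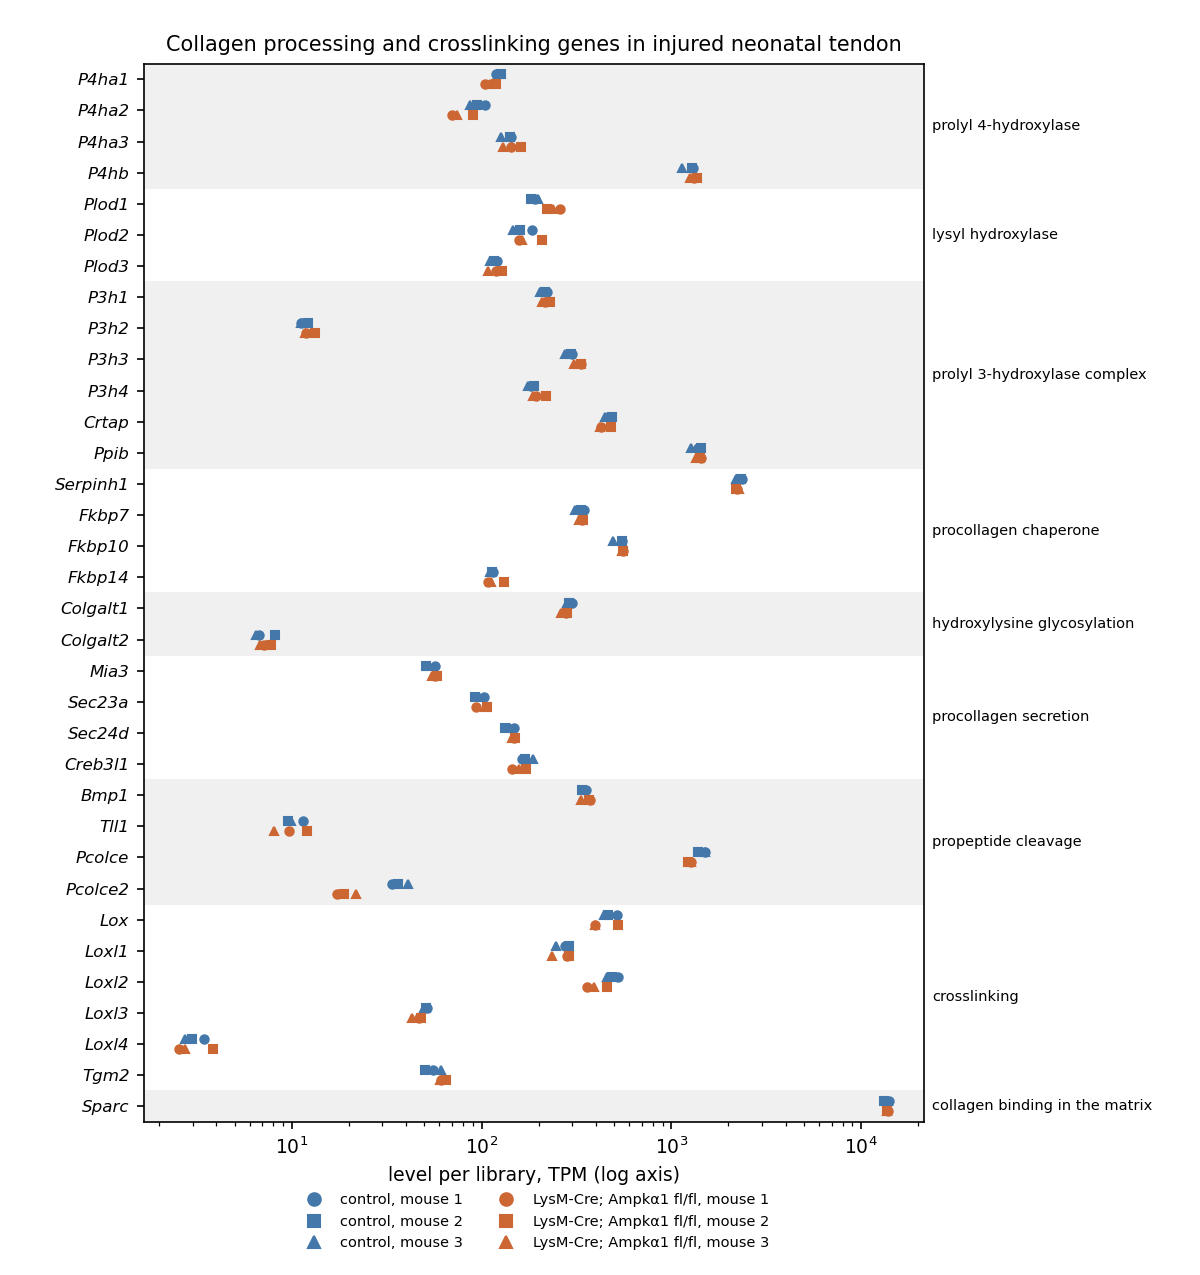
Level of each of the 34 genes in each library, in TPM on a log axis, grouped by role; blue symbols are the 3 control mice and orange symbols the 3 LysM-Cre; Ampkα1 fl/fl mice. Levels run from about 3 TPM for Loxl4 to 13700 TPM for Sparc, and the gap between the groups is widest for Pcolce2.

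To ask whether myeloid loss of Ampkα1 went with a change in this machinery, the groups were compared gene by gene with edgeR's quasi-likelihood test on the estimated counts, with Benjamini-Hochberg adjustment over all 14261 genes. Pcolce2, a procollagen C-proteinase enhancer, was lower in the mice with the myeloid deletion and was the only 1 of the 34 genes with an adjusted p under 0.05. Over all genes tested, 0.898% passed this threshold, and 0.568% passed it with a lower level in LysM-Cre; Ampkα1 fl/fl mice. Blocking on the replicate number, 47 genes in all passed in place of 128, and Pcolce2 remained among them. The median log2 fold change of the 34 genes was 0.02, beside -0.002 over all genes tested, with 20 estimates above 0 and 14 below. For 29 of the 34 the estimate lay within 0.2 of 0 on the log2 scale. At an unadjusted p under 0.05 there were 7 of the 34 genes, 2 higher (Plod1 and Tgm2) and 5 lower (P4ha2, Pcolce, Pcolce2, Loxl2 and Loxl3), whereas 14.5% of all genes tested met the same limit.

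How precisely each change in the whole tissue was estimated is given by its interval in the main fit. These intervals are per gene, not adjusted for the number of genes, and do not bound changes within a cell type or under a covariate. The 95% intervals of 33 of the 34 fold changes lay wholly within a 1.5-fold change in either direction, Pcolce2 being the exception. Among the 33, the outermost interval bounds were a 0.695-fold level for P4ha2 and a 1.43-fold level for Plod1. The coefficient of variation of a gene's TPM among mice of 1 group had a median of 5.59% in the control group and 7.15% among LysM-Cre; Ampkα1 fl/fl mice. The highest value was 22.8%, for Loxl4 in the latter group. The commonest order of the 3 mice was found for 15 of the 34 genes in the control group and for 19 in the other. Control mouse 1 had the highest TPM of its group for 22 of the 34 genes and control mouse 3 the lowest for 22, while LysM-Cre; Ampkα1 fl/fl mouse 2 was highest for 27 and mouse 3 lowest for 21.

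**Figure D2:**
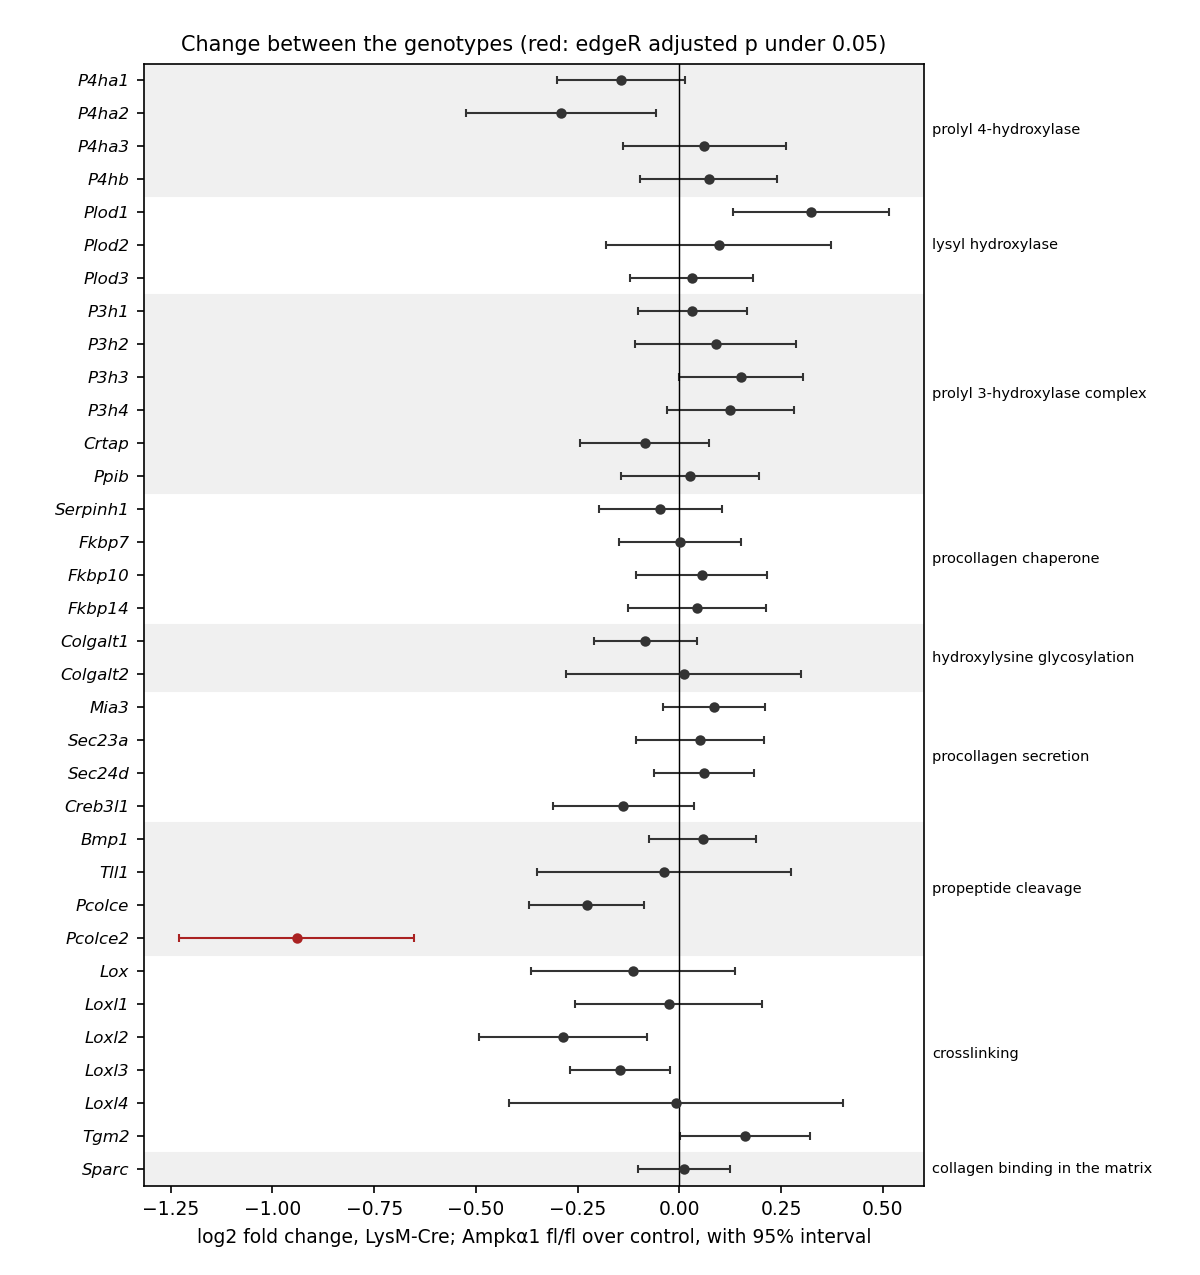
Log2 fold change of each gene from edgeR, LysM-Cre; Ampkα1 fl/fl over control, with its 95% interval, grouped by role; a red point marks an adjusted p under 0.05. The estimate for Pcolce2 is -0.94 and stands apart, while 29 of the 34 estimates lie within 0.2 of 0.

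Groups that did not overlap in TPM were found for 6 of the 34 genes. Plod1 and P3h3 were higher in every LysM-Cre; Ampkα1 fl/fl mouse than in any control mouse, and Pcolce, Pcolce2, Loxl2 and Loxl3 were lower in every one. Over all genes tested the groups did not overlap in 19.1%. DESeq2, which calls 4.77% of all genes tested, gave an adjusted p under 0.05 for 4 of the 34: Pcolce2 (8.89e-08), Plod1 (0.00357), Pcolce (0.00633) and Loxl2 (0.0335).

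**Figure D3:**
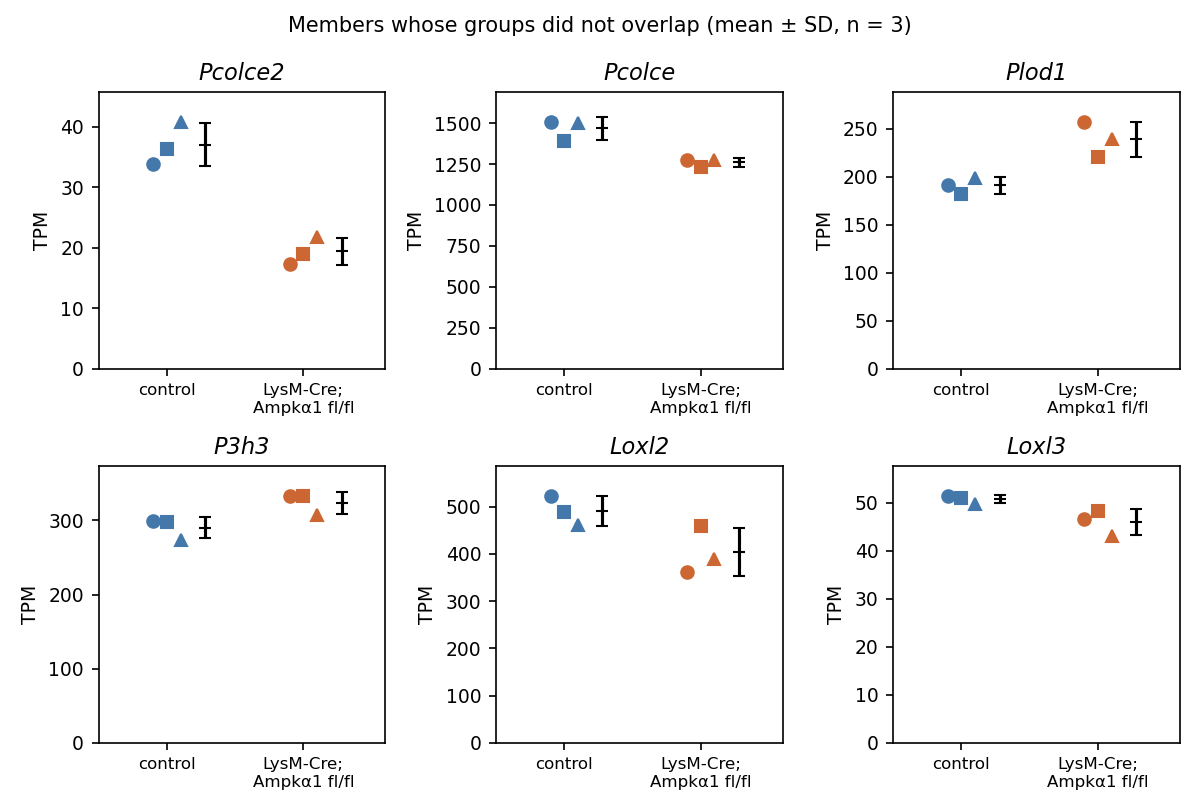
TPM per mouse, on axes that start at 0, for the 6 genes whose groups did not overlap; blue is control, orange is LysM-Cre; Ampkα1 fl/fl, the marker shape gives the replicate number, and the black bars are mean ± SD (n = 3). Relative to the level of the gene, the gap between the groups is widest for Pcolce2, at 33.9 to 40.8 TPM against 17.3 to 21.8 TPM.

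Propeptide cleavage was the step with the only called change. Bmp1 and Tll1 encode tolloid proteinases, which cut off the C-terminal propeptide of fibrillar procollagens, and Pcolce and Pcolce2 encode secreted enhancers that bind the propeptide and speed this cut. Pcolce2 had 33.9, 36.4 and 40.8 TPM in control mice and 17.3, 18.96 and 21.8 TPM in LysM-Cre; Ampkα1 fl/fl mice. These rest on 491, 530 and 571 reads against 258, 262 and 320 reads, and the highest LysM-Cre; Ampkα1 fl/fl mouse was far below the lowest control mouse. The log2 fold change of Pcolce2 was -0.94 (SE 0.12, n = 3 and 3, edgeR adjusted p = 0.0298), a level 0.52-fold that of control. An exact two-sided permutation test gave p = 0.1, the smallest that 3 against 3 libraries allow. The edgeR call for Pcolce2 was lost without control mouse 1, 2 or 3 (adjusted p = 0.0987, 0.156 and 0.0796) and without LysM-Cre; Ampkα1 fl/fl mouse 1 (adjusted p = 0.120), while the log2 fold change stayed between -1.06 and -0.87 whichever mouse was left out.

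Pcolce, the major enhancer of the pair, had 1509, 1388 and 1503 TPM in control mice and 1277, 1230 and 1273 TPM in LysM-Cre; Ampkα1 fl/fl mice. The groups of Pcolce did not overlap, at a log2 fold change of -0.23 (SE 0.06, edgeR adjusted p = 0.146). Pcolce2 thus made up 2.46% ± 0.239 (SD, n = 3) of the summed TPM of the 2 enhancers in control mice and 1.51% ± 0.173 in LysM-Cre; Ampkα1 fl/fl mice. Their summed level was 1504 ± 68.7 TPM against 1280 ± 26.6 TPM, nearly all of it Pcolce, and did not overlap between the groups (exact permutation p = 0.1). For both proteinases the groups overlapped. Bmp1 was between 336.9 and 354.3 TPM in control mice and between 335.0 and 374.6 TPM in LysM-Cre; Ampkα1 fl/fl mice, with a log2 fold change of 0.06 (SE 0.06, edgeR adjusted p = 0.699). The long form of Bmp1, mammalian tolloid with 991 codons, took 94.1% ± 0.614 of its TPM in control mice and 94.5% ± 0.496 in LysM-Cre; Ampkα1 fl/fl mice. Tll1 was between 9.58 and 11.4 TPM in control mice and between 8.03 and 12.1 TPM in the other group. The ratio of Pcolce to Bmp1 was 4.26 ± 0.134 in control mice and 3.52 ± 0.25 in LysM-Cre; Ampkα1 fl/fl mice. Col1a1, the α1 chain of type I collagen and a substrate of this step, had a log2 fold change of 0.00 with an SE of 0.07. The ratio of Col1a1 to Pcolce2 in TPM was 474.9 ± 41.6 in control mice and 908.7 ± 109 in LysM-Cre; Ampkα1 fl/fl mice, which restates the lower Pcolce2. Not every fibrillar chain was level. Col3a1, named after its value was seen, was lower without overlap in TPM (log2 fold change -0.24, SE 0.06, edgeR adjusted p = 0.140).

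The promoters of the 2 enhancers and of Plod1 are shown because these were the 3 members with the smallest p-values. Each runs from 250 bases before to 50 bases after a transcription start (RefSeq, GRCm38.p6) and is written 5′ to 3′ on the strand of the gene, and has in capitals every match on either strand to GGGCGG (the GC box bound by Sp factors), to TATAAA and to ACGTG or GCGTG (the core of the hypoxia response element). CCAAT was also searched and is in none of the 3. The start used for Pcolce lies inside the annotated interval of the gene and not at its outermost 5′ end. Pcolce2 lies on chromosome 9, plus strand, at chr9:95637378-95637677, Pcolce on the minus strand at chr5:137611355-137611654 and Plod1 on the minus strand at chr4:147936727-147937026.
Pcolce2: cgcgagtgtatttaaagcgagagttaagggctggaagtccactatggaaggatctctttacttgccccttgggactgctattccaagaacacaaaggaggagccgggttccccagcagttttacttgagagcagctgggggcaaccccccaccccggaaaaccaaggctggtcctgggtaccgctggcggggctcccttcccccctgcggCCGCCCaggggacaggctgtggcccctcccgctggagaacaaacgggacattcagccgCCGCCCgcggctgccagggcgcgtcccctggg
Pcolce: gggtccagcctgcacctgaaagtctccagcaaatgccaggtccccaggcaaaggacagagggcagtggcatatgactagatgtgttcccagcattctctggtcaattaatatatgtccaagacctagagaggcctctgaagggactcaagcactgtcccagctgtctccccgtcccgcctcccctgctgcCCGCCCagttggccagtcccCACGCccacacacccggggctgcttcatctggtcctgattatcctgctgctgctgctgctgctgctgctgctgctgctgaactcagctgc
Plod1: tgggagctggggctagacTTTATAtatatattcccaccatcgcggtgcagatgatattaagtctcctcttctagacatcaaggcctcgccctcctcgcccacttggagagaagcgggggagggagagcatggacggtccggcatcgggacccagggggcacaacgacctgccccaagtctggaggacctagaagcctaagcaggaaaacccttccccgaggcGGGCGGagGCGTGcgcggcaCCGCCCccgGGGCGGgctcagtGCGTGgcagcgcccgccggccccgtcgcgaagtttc
The Pcolce2 window holds 2 GC boxes and no match to the hypoxia core, the Pcolce window 1 GC box and 1 hypoxia core, and the Plod1 window 3 GC boxes, 2 hypoxia cores and 1 TATAAA. Of the 34 genes, 22 matched a promoter in the RefSeq table. A GC box was found in 17 of the 22 (77.3%), compared to 62.2% of the promoters of genes tested and 35.9% of all 27025 promoters. The hypoxia core was found in 72.7% of the members' promoters, 61.3% of those of genes tested and 43.8% of all. Matches to CCAAT were present in 36.4%, 38.6% and 37.9%, and to TATAAA in 13.6%, 7.9% and 14.2%. The median GC content was 63.0% for the members, 60.7% for genes tested and 52.7% for all. A match describes these letters only and was not compared with binding data.

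Prolyl 4-hydroxylase, which hydroxylates the prolines that keep the triple helix stable at body temperature, is a tetramer of catalytic α subunits (P4ha1, P4ha2 or P4ha3) and the β subunit P4hb, a protein disulfide isomerase. None of the 4 genes passed the adjusted threshold. P4ha2 had 104.3, 94.4 and 86.8 TPM in control mice and 70.3, 90.0 and 74.6 TPM in LysM-Cre; Ampkα1 fl/fl mice. The groups overlapped through LysM-Cre; Ampkα1 fl/fl mouse 2, at a log2 fold change of -0.29 (SE 0.10, edgeR adjusted p = 0.237). P4ha1 was between 118.5 and 126.4 TPM against 103.9 to 119.8 TPM (log2 fold change -0.14, SE 0.07), P4ha3 between 126.3 and 143.7 TPM against 129.2 to 160.6 TPM (0.06, SE 0.08), and P4hb between 1137 and 1294 TPM against 1258 to 1361 TPM (0.07, SE 0.07). P4ha3 was the most abundant α subunit in 6 of 6 libraries. Its share of the summed α subunit TPM was 38.6% ± 0.883 in control mice and 43.2% ± 1.98 in LysM-Cre; Ampkα1 fl/fl mice, whereas the share of P4ha2 was 26.8% ± 1.45 and 23.4% ± 1.11. Neither share overlapped between the groups (exact permutation p = 0.1 for each). Shares within a family depend on each other, so these are not separate results. Of the single genes tested, 19.1% did not overlap in TPM. P4hb was in excess over the 3 α subunits together by 3.49 ± 0.0921 in control mice and 3.94 ± 0.238 in LysM-Cre; Ampkα1 fl/fl mice, again without overlap.

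P4ha1 transcripts carry 1 of 2 mutually exclusive exons of 71 bases each in the coding sequence, exon 9 of 15. They are shown because the 2 forms were nearly equally abundant and had the same length of 534 codons. Form a uses chr10:59354340-59354410 and form b chr10:59355350-59355420 (GRCm38, plus strand), and the 29 positions at which they differ are in capitals.
P4ha1 form a: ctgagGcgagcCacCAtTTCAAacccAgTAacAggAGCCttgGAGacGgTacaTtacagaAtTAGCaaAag
P4ha1 form b: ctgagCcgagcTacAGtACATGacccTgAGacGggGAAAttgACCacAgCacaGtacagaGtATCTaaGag
The exons are identical at the other 42 positions. Form a took 56.3% ± 0.366 of the P4ha1 TPM in control mice and 54.5% ± 3.00 in LysM-Cre; Ampkα1 fl/fl mice, and the groups overlapped (exact permutation p = 0.4). P4ha2 has a similar pair, chr11:54126238-54126297 with 60 bases and chr11:54126346-54126411 with 66 bases. The form with the shorter exon took 60.2% ± 3.38 and 56.9% ± 4.09 of the P4ha2 TPM (exact permutation p = 0.5).

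Lysyl hydroxylases place the hydroxyl groups that later take part in crosslinks and carry sugars. Plod1 acts mainly on helical lysines, Plod2 on lysines of the telopeptides at the chain ends, and Plod3 also has glycosyltransferase activity. Plod1 had 191.8, 182.1 and 198.8 TPM in control mice and 257.5, 220.3 and 239.3 TPM in LysM-Cre; Ampkα1 fl/fl mice. The lowest LysM-Cre; Ampkα1 fl/fl value was above the highest control value. The log2 fold change of Plod1, 0.32 (SE 0.08), was the largest positive value of the 34 genes and did not pass in edgeR (adjusted p = 0.136), though it did without LysM-Cre; Ampkα1 fl/fl mouse 2 (adjusted p = 0.0411). Plod2 was between 146.1 and 184.2 TPM against 157.0 to 207.3 TPM, and Plod3 between 110.2 and 120.0 TPM against 108.4 to 127.4 TPM, with log2 fold changes of 0.10 (SE 0.12) and 0.03 (SE 0.06). The 3 genes together had 469.7 ± 22.8 TPM in control mice and 533.1 ± 22.3 TPM in LysM-Cre; Ampkα1 fl/fl mice, and these sums did not overlap (exact permutation p = 0.1). The share of Plod3 in the sum was 24.6% ± 0.646 against 22.2% ± 0.871, while those of Plod1 and Plod2 overlapped.

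The alternative exon of Plod2 is shown because its inclusion defines the long form LH2b, the one known for hydroxylating telopeptides. It has 63 bases, is exon 14 of 20 and lies at chr9:92601985-92602047 (GRCm38, plus strand), within the coding sequence. The exon is in capitals, with 15 bases of the neighbouring coding exons on each side in lower case.
Plod2 exon 14: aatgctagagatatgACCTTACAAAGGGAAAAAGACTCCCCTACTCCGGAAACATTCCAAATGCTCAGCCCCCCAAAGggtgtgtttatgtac
The long form, with 758 codons, took 95.4% ± 1.59 of the Plod2 TPM in control mice and 96.0% ± 0.991 in LysM-Cre; Ampkα1 fl/fl mice. The form without the exon, with 737 codons, took 4.11% ± 1.55 and 3.59% ± 0.995. The groups overlapped for both forms (exact permutation p = 0.6).

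**Figure D4:**
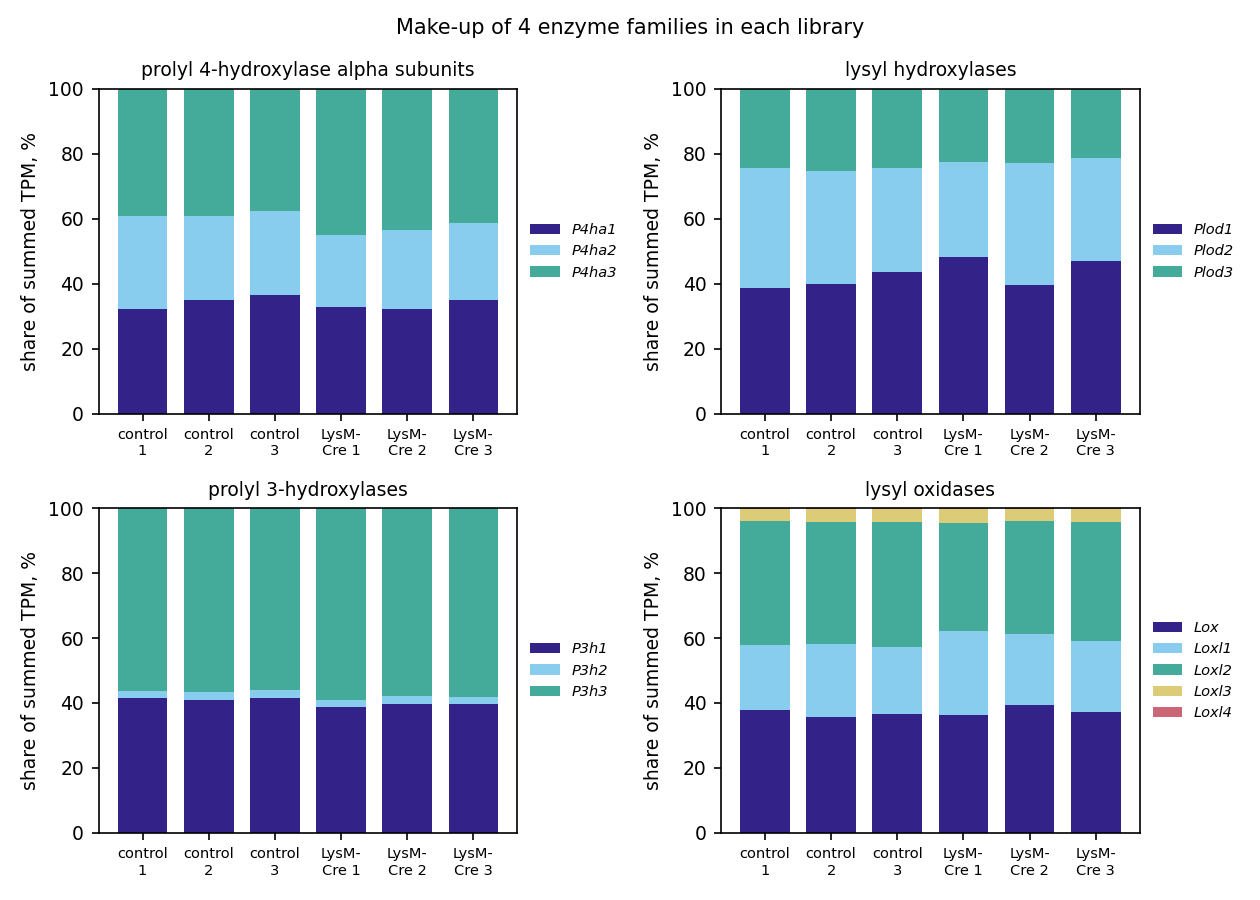
Share of the summed TPM taken by each member of 4 enzyme families in each of the 6 libraries, in percent of the family's sum; each bar is 1 library and LysM-Cre stands for LysM-Cre; Ampkα1 fl/fl. P4ha3 takes 37.6% to 39.2% of its family in control mice and 41.1% to 45.1% in the other group, and Loxl2 takes 37.7% to 38.3% and 33.2% to 36.7%.

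Prolyl 3-hydroxylation modifies a few prolines of fibrillar collagens, and P3h1 does so in a complex with Crtap and the prolyl isomerase Ppib (cyclophilin B), which also assists folding. P3h3 and P3h4 (SC65) form a complex linked to lysine hydroxylation. None of the 6 genes passed the adjusted threshold, and none had an unadjusted p under 0.05 in edgeR or an adjusted p under 0.05 in DESeq2. P3h3 had 299.4, 297.3 and 273.8 TPM in control mice and 332.3, 333.1 and 307.0 TPM in LysM-Cre; Ampkα1 fl/fl mice. The groups of P3h3 did not overlap, with a log2 fold change of 0.15 (SE 0.06, edgeR adjusted p = 0.346). Its partner P3h4 was between 175.2 and 188.3 TPM against 186.1 to 217.6 TPM (log2 fold change 0.12, SE 0.07), and the ratio of P3h4 to P3h3 was 0.63 ± 0.0184 and 0.62 ± 0.0345. For P3h1 the log2 fold change was 0.03 (SE 0.06), for Crtap -0.09 (SE 0.07), for Ppib 0.03 (SE 0.07) and for P3h2, which was scarce here, 0.09 (SE 0.08). P3h3 accounted for 56.4% ± 0.281 of the TPM of the 3 prolyl 3-hydroxylases in control mice and 58.4% ± 0.679 in LysM-Cre; Ampkα1 fl/fl mice, with no overlap. The share of P3h1 was correspondingly lower, at 41.37% ± 0.332 and 39.35% ± 0.585, also with no overlap.

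The endoplasmic reticulum chaperones of procollagen had overlapping groups. Serpinh1, which binds the finished triple helix, was between 2192 and 2362 TPM in control mice and between 2186 and 2271 TPM in LysM-Cre; Ampkα1 fl/fl mice, with a log2 fold change of -0.05 (SE 0.06). The peptidyl-prolyl isomerases Fkbp7, Fkbp10 (FKBP65) and Fkbp14 (FKBP22) had log2 fold changes of 0.00 (SE 0.06), 0.05 (SE 0.07) and 0.04 (SE 0.07). No member of this group had an edgeR adjusted p under 0.775. Colgalt1, which adds galactose to hydroxylysine, was between 280.8 and 298.8 TPM against 261.0 to 282.3 TPM (log2 fold change -0.08, SE 0.05). Its scarce relative Colgalt2 was between 6.51 and 8.18 TPM against 6.83 to 7.73 TPM (0.01, SE 0.12).

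Secretion of procollagen needs Mia3 (TANGO1), which loads it at exit sites of the endoplasmic reticulum, and the vesicle coat proteins Sec23a and Sec24d. Creb3l1 (OASIS) is a transcription factor of the endoplasmic reticulum that activates type I collagen genes in bone. Mia3 was between 50.8 and 57.1 TPM in control mice and between 55.1 and 58.1 TPM in LysM-Cre; Ampkα1 fl/fl mice (log2 fold change 0.09, SE 0.05). Sec23a and Sec24d had log2 fold changes of 0.05 (SE 0.07) and 0.06 (SE 0.05). Creb3l1 had 164.0, 170.1 and 185.6 TPM against 145.5, 172.3 and 157.0 TPM, and the groups overlapped (log2 fold change -0.14, SE 0.07, edgeR adjusted p = 0.452).

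Among the crosslinking enzymes, lysyl oxidase Lox and its relatives Loxl1 to Loxl4 carry out the oxidation of lysines, and Tgm2 (transglutaminase 2) joins glutamine to lysine side chains. None of the 6 genes passed the adjusted threshold in edgeR, 3 had an unadjusted p under 0.05, and Loxl2 passed in DESeq2. Loxl2, known for its part in type IV collagen crosslinking, had 522.8, 488.2 and 460.7 TPM in control mice and 361.5, 459.3 and 389.9 TPM in LysM-Cre; Ampkα1 fl/fl mice. The groups were separated only by the small gap between control mouse 3 and LysM-Cre; Ampkα1 fl/fl mouse 2, at a log2 fold change of -0.29 (SE 0.09, edgeR adjusted p = 0.193). Loxl3 had 51.4, 51.0 and 49.8 TPM against 46.6, 48.3 and 43.1 TPM, with a log2 fold change of -0.15 (SE 0.05, edgeR adjusted p = 0.257). Lox, the main oxidase of type I collagen, had 516.7, 462.0 and 440.9 TPM against 396.0, 522.9 and 394.4 TPM. The highest and the lowest of the 6 values both belonged to LysM-Cre; Ampkα1 fl/fl mice, and the log2 fold change was -0.11 (SE 0.11, edgeR adjusted p = 0.682). Loxl1, which is known for elastic fibres, had a log2 fold change of -0.03 (SE 0.10) and Loxl4 one of -0.01 (SE 0.17). Tgm2 had 55.5, 50.2 and 61.1 TPM against 61.0, 65.3 and 60.7 TPM, with a log2 fold change of 0.16 (SE 0.07, edgeR adjusted p = 0.342) and overlapping groups.

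Lox and Loxl2 were the most abundant oxidases in both groups and were near each other in level. Loxl2 held 38.1% ± 0.312 of the summed TPM of the 5 oxidases in control mice, just above Lox at 36.7% ± 1.00. In LysM-Cre; Ampkα1 fl/fl mice Loxl2 held 34.9% ± 1.71 and Lox 37.7% ± 1.62, so their order was the opposite in the means. The share of Loxl2 did not overlap between the groups and that of Lox did (exact permutation p = 0.1 and 0.5). The summed level of the 5 oxidases was 1289 ± 84.2 TPM and 1159 ± 144 TPM (exact permutation p = 0.3). Sparc was between 13280 and 13950 TPM in control mice and between 13610 and 13860 TPM in LysM-Cre; Ampkα1 fl/fl mice (log2 fold change 0.01, SE 0.05).

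The rest of the pathway was read from a list of 48 other genes of collagen biosynthesis, among them further propeptidases, coat proteins and folding factors. In edgeR 1 of the 48 passed the threshold with a lower level and 0 with a higher one, while 7 higher and 3 lower had an unadjusted p under 0.05. DESeq2 called 6 of the 48, beside 4.77% of all genes tested. The groups of 13 did not overlap in TPM, beside 19.1% of all genes. Besides F13a1, DESeq2 called Aebp1, Creb3l2, Mrc2, Emilin1 and Pxdn, named after their values were seen. All of these were higher, with edgeR log2 fold changes of 0.44, 0.26, 0.31, 0.22 and 0.18. The gene called by edgeR was F13a1, the catalytic subunit of coagulation factor XIII, a transglutaminase that macrophages also make. F13a1 had 101.9, 106.8 and 89.5 TPM in control mice and 45.6, 53.0 and 29.5 TPM in LysM-Cre; Ampkα1 fl/fl mice, with a log2 fold change of -1.23 (SE 0.19, edgeR adjusted p = 0.0456). That call was lost without any 1 of control mice 1, 2 and 3 or LysM-Cre; Ampkα1 fl/fl mouse 1, with adjusted p between 0.0853 and 0.194. It was also lost with upper-quartile scaling (adjusted p = 0.0539), with the muscle score as a covariate (log2 fold change -0.99, adjusted p = 0.0672) and with limma on log2(TPM + 1) and log2(TPM + 0.1) (adjusted p = 0.0655 and 0.0666). The median log2 fold change of the 48 was 0.01. Of the 11 fibrillar collagen chains, the substrates of these enzymes, 0 passed in edgeR and 1 was higher and 3 lower at an unadjusted p under 0.05. DESeq2 called 3 of the 11, beside 4.77% of all genes tested. Named after their values were seen, these were Col3a1 and Col5a3, both lower, and Col11a1, higher. The groups of these 3 did not overlap in TPM. In edgeR the log2 fold change was -0.24 for Col3a1 and -0.46 for Col5a3 (adjusted p = 0.140 and 0.0698). The median of the 11 chains was -0.007. Col2a1 was lowest at -1.89 (SE 0.76), where control mouse 2 had 873.9 TPM and the other 5 mice between 89.3 and 154.7 TPM. Col11a1 was highest at 0.38 (SE 0.06, edgeR adjusted p = 0.0565). Since many hydroxylase and oxidase genes are known targets of hypoxia-inducible factor, 19 other targets were read as well. Bnip3, a mitophagy receptor, was called at 0.54 (SE 0.05, edgeR adjusted p = 0.0134). The call for Bnip3 was lost with the replicate block (adjusted p = 0.0525) and without any 1 of control mice 1, 2 and 3 or LysM-Cre; Ampkα1 fl/fl mouse 1 (adjusted p between 0.0512 and 0.0985). Of the 19 targets, 4 were higher and 3 lower at an unadjusted p under 0.05, DESeq2 called 2, and the median was 0.10. The 2 called by DESeq2, named after their values were seen, went in opposite directions, Bnip3 up and Adm down (log2 fold change -0.57 in edgeR, DESeq2 adjusted p = 0.0305).

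The genes read here as tendon cell markers, Scx, Tnmd, Mkx, Fmod, Thbs4, Kera, Tnc and Egr1, were all detected, though not all are particular to tendon cells. Their summed levels were 8479 to 9356 TPM in control mice and 8906 to 9764 TPM in LysM-Cre; Ampkα1 fl/fl mice. Their log2 fold changes ran from -0.21 for Kera to 0.22 for Egr1, with 0 called by edgeR or DESeq2 and 0 at an unadjusted p under 0.05. Lyz2, the gene that holds the Cre insertion, was between 1059 and 1127 TPM in control mice and between 1.15 and 2.30 TPM in LysM-Cre; Ampkα1 fl/fl mice, which matches the labels. Prkaa1, which encodes AMPKα1, was between 16.8 and 18.3 TPM against 14.9 to 19.4 TPM in the whole tissue. Markers of other cell types differed among the libraries. Summed skeletal muscle markers, 20 genes, ran from 530.5 to 8268 TPM in control mice and from 2908 to 24270 TPM in LysM-Cre; Ampkα1 fl/fl mice, with 20 of 20 estimates above 0 and 0 called by edgeR (1 at an unadjusted p under 0.05) or DESeq2. The estimates ran from 1.49 for Actn3 to 3.34 for Myh7. Summed macrophage and myeloid markers, 12 genes including Lyz2, were between 2271 and 2323 TPM and between 870 and 1111 TPM. Without Lyz2, the only one called by edgeR, the sums of the other 11 were between 1195 and 1212 TPM and between 868.8 and 1108 TPM. Of these 11, 8 estimates were below 0 and 3 above (Cd68, Fcgr1 and Mertk, named after their values were seen). They ran from -0.83 for Mrc1 to 0.25 for Cd68. At an unadjusted p under 0.05, 5 were lower and 1 higher, and DESeq2 called 4. Summed erythroid markers were between 13810 and 22230 TPM and between 5174 and 7243 TPM, with 6 of 7 genes called lower (Hba-a1, Hba-a2, Hbb-bs, Hbb-bt, Alas2 and Slc4a1) and 1 of 7 with the replicate block. Of the cartilage markers, Acan, the large proteoglycan aggrecan, was called higher at a log2 fold change of 0.60 (SE 0.08, edgeR adjusted p = 0.0298). That call was lost with the replicate block (adjusted p = 0.0634), with limma on log2(TPM + 1) and log2(TPM + 0.1) (adjusted p = 0.0529 and 0.0532) and without any 1 of the 3 control mice or LysM-Cre; Ampkα1 fl/fl mice 1 and 3 (adjusted p between 0.0730 and 0.163). In that list 10 genes were tested, 4 were higher and 2 lower at an unadjusted p under 0.05, DESeq2 called 4, and the summed level was between 678.3 and 1617 TPM in control mice and between 926.5 and 946.7 TPM in LysM-Cre; Ampkα1 fl/fl mice. The 8 proliferation markers were all below 0, from -0.73 for Tpx2 to -0.54 for Cdk1, with 0 called by edgeR, 8 at an unadjusted p under 0.05 and 5 called by DESeq2. The 8 osteoblast markers ran from -5.46 for Ibsp to 0.52 for Spp1 with a median of -1.57, and 0 were called by edgeR, 5 were lower and 1 higher at an unadjusted p under 0.05, and DESeq2 called 5. Their summed level, in contrast to the median, was between 195.9 and 236.5 TPM in control mice and between 245.1 and 289.0 TPM in LysM-Cre; Ampkα1 fl/fl mice. Most of that sum was Spp1, with 182.2, 199.1 and 136.2 TPM in control mice and 278.9, 232.9 and 236.6 TPM in the other group. Of the 8 estimates, 6 were below 0 and 2 above. The 6 endothelial markers ran from -0.39 for Vwf to -0.03 for Emcn, with 0 called by edgeR, 1 lower at an unadjusted p under 0.05 and 1 called by DESeq2. With the muscle score as a covariate, Pcolce2 had a log2 fold change of -1.10 (edgeR adjusted p = 0.0154) and Plod1 one of 0.24 (adjusted p = 0.376). Since the estimates of all 20 muscle genes were above 0, the score was not independent of genotype, and that fit cannot fully separate them. The part of muscle, myeloid, erythroid, cartilage, endothelial, proliferating or bone cells in the lower Pcolce2 was not tested. In bulk tissue, fewer cells of a type and less RNA per cell cannot be told apart.

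Reads could be shared between some members and their neighbours, because strand is not stated for these libraries. On the RefSeq annotation 13 of the 34 genes overlap another gene and 6 of them a protein-coding one, namely Plod3 with Znhit1, Ppib with Snx22, Fkbp10 with Nt5c3b, Fkbp14 with Plekha8, Colgalt1 with Unc13a and Loxl3 with Htra2. Pcolce2 (chr9:95637628-95695551) contains the pseudogene Itpa-ps2, while Plod1 (chr4:147909753-147936776) and Pcolce (chr5:137605105-137611522) overlap none.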

How the data were processed

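RNA was extracted with TRIzol and sequenced on a BGISEQ platform by the company named in the labels. The authors deposited 2 kinds of value used here for 65053 RefSeq transcripts per mouse, namely estimated counts without normalization and TPM scaled to transcript length and library total. The aligner, the counting tool and the strand setting are not given in the sources used here, and the submitters' processing notes name the build GRCm38.p6. A further 20 columns (FPKM, the authors' normalized read counts and group averages) were not used here. Groups and replicate numbers came from the labels, and age and day of sampling from the paper's methods and results.

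Counts and TPM were added up over the transcripts of each gene, counts were rounded, and 18049 of 18099 genes (99.72%) were matched to a symbol by NCBI Gene identifier. Genes were tested with edgeR 4.0.16 in R 4.3.3 (TMM, filterByExpr, quasi-likelihood F test, Benjamini-Hochberg over 14261 genes, threshold 0.05), after the test was tried on simulated data. Exact permutation tests were two-sided, on log2(CPM + 0.5) for a gene and on the value itself for a share, sum or ratio. Levels are TPM and fold changes are from counts. Whether groups overlap was read from TPM. The SE of a fold change was derived from the log2 fold change and the F statistic, and the interval from that SE. The spread estimates behind both are shared over all genes tested. Intervals rest on these 3 mice per group only. Shares within a family were described without a model, and no background rate of non-overlap was computed for shares, sums or ratios. Alternatives were DESeq2 1.42.0, RLE and upper-quartile scaling, 2 other filters, the replicate number as a block, a muscle score as covariate, limma 3.58.1 on log2(TPM + 1) and log2(TPM + 0.1), and leaving out each mouse.

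The deviations from the group means of same-numbered mice correlated at 0.184, 0.118 and 0.31 for numbers 1, 2 and 3. All were over 0.1, but control mouse 1 correlated at 0.501 with LysM-Cre; Ampkα1 fl/fl mouse 2, and nothing in the labels says what the numbers share. Whether the numbers pair the libraries is therefore not settled. The main fit had no block, and the fit with the replicate block is given beside it. The members and lists were chosen with earlier results of these data known. Named genes were all members, the genes of other lists that were called (or, with none, the highest and lowest), Prkaa1 and Lyz2. Col1a1 as the substrate in a ratio, the tendon markers as a check of the tissue, and genes marked as such in the text were named outside this rule. Motif matches and exons were read from RefSeq and GENCODE M21 sequences of GRCm38.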

Additional observations from a re-analysis of the deposited data

How the results depend on the processing

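Of the members' fold changes recomputed over 15 alternatives, 472 kept their direction and side of the threshold, 4 lost the call, 4 gained one and 30 changed sign. Those that changed sign had estimates between -0.11 and 0.10 as reported. The number of genes called was 680 with DESeq2, 47 with the replicate block, 72 with the muscle score, 68 and 61 with limma at a pseudocount of 1 and 0.1, and 8 to 276 when a mouse was left out. The number of members called was 4 with DESeq2 and 0 to 2 when a mouse was left out. With the replicate block it was 1, and the block changed no other call among the members. Of the 48 other collagen biosynthesis genes, DESeq2 called 6, upper-quartile scaling, the muscle score and limma at both pseudocounts each called 0, and leaving out a mouse gave 0 to 4. The members' median log2 fold change was 0.0813 with the muscle score. Under that covariate the estimate changed sign for Tll1 (0.1458), Lox (0.0437), Loxl1 (0.091), Loxl4 (0.2108) and Sparc (-0.0132). Fkbp7 was at -0.0095 with upper-quartile scaling and at -0.0002 with at least 10 reads in every library. Leaving out a mouse gave -0.0588 to 0.1413 for Colgalt2, -0.168 to 0.0728 for Tll1, -0.1801 to 0.0986 for Loxl4, -0.0932 to 0.0475 for Loxl1, -0.002 to 0.1169 for P4ha3, -0.0089 to 0.0717 for Plod3, -0.0071 to 0.0565 for P3h1, -0.035 to 0.0797 for Ppib, -0.0562 to 0.0398 for Fkbp7, -0.0013 to 0.1 for Fkbp10, -0.0056 to 0.0458 for Sparc, -0.0108 to 0.1773 for Plod2 and -0.0239 to 0.0978 for Fkbp14. Judged on TMM-scaled CPM, 9 members had groups that did not overlap, against 20.4% of all genes tested. The causes were not tested, except that leaving out a mouse tests fewer samples.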
